A study of Arabidopsis thaliana with 9 samples.

Results

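IAA20 (AT2G46990), IAA29 (AT4G32280), IAA30 (AT3G62100), LBD16 (AT2G42430) and LBD29 (AT3G58190) are 5 auxin response genes of Arabidopsis thaliana. They were chosen by gene, with earlier results of these data known. Each had 1 probe set that names it alone, so all 5 were measured among 16411 genes with a probe set of their own and 38310 probe sets in all. The cells were a dark-grown suspension culture of the line Alex, in the background labelled Col-O, and all of them carried LHW and a T5L1-GFP fusion under an estrogen-inducible system. They were sampled after 12 h with 5 µM estrogen, after 12 h without it, and at 0 h, with 3 arrays per group. The study sought the genes downstream of LHW and T5L1, which are basic helix-loop-helix transcription factors that act as a pair in vascular development.

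Auxin acts through short-lived Aux/IAA repressors, which bind auxin response factors (ARFs) and hold their target genes off until auxin brings the repressors to TIR1/AFB receptors for degradation. Many Aux/IAA genes are themselves auxin-induced. IAA29 is a repressor of this canonical kind, whereas IAA20 and IAA30 are close relatives that lack the degron through which the receptors act. LBD16 and LBD29 are LOB-domain transcription factors that act downstream of ARF7 and ARF19 in lateral root initiation and in callus formation.

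Estrogen was never given to cells without the inducible pair, and neither gene was induced alone, so effects of estrogen, LHW and T5L1 cannot be told apart. LHW itself had log2 signals of 10.72 to 11.24 in estrogen-treated cells, against 8.14 to 8.72 in untreated cells at 12 h and 8.22 to 8.71 at 0 h. T5L1 was not analysed here. Of the listed marker genes of other cell states, 1 photosynthesis gene (RCA, the Rubisco activase) and 1 lateral root gene (PUCHI, a transcription factor of lateral root primordia) had a probe set of their own. The listed xylem, phloem and procambium markers were not analysed here. RCA averaged 4.97 ± 0.31 with estrogen, 4.72 ± 0.50 without it and 7.92 ± 0.35 at 0 h (SD, n = 3 each), and its part in the differences from 0 h was not tested. PUCHI lay between 2.44 and 2.65 on average in all 3 groups. In such bulk samples, fewer cells of a type and less RNA per cell cannot be told apart.

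All values are the deposited log2 signals, on which 1 unit is a doubling, and a probe set's level cannot be set against that of another. The median of the 23 background control rows, which exist for replicates 1 and 2, was 4.20 on this scale (array medians 3.86 to 4.27, single rows 1.08 to 8.20). IAA20 and IAA29 lay below 4.20 on 9 of 9 arrays, LBD29 on 8 and IAA30 on 7, and LBD16 on 0. The IAA30 values above it, 4.47 at 0 h and 5.35 with estrogen, were both on replicate 3, which lacks these background rows. In replicates 1 and 2 every IAA30 value lay below it. Sizes of change are therefore uncertain for IAA20, IAA29, LBD29 and IAA30. LBD16 was the 1 member that exceeded, on all arrays, the highest background row of replicates 1 and 2 (8.20). Replicate 3 stood apart: its arrays hold other control rows, have the highest median log2 signal of each group, and have equal values on 2 or 3 of the 3 arrays for 37.6% of probe sets, against 1.06% in replicate 1 and 0.833% in replicate 2. Among dim probe sets with 1 gene, whose mean lay below 4.20, that share was 85.6% in replicate 3. IAA29 and LBD29 each had the identical value on all 3 replicate 3 arrays, and IAA20 had it on the 2 arrays at 12 h. A difference of exactly 0 in replicate 3 for these genes is thus a repeat of the deposited value.

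**Figure D1:**
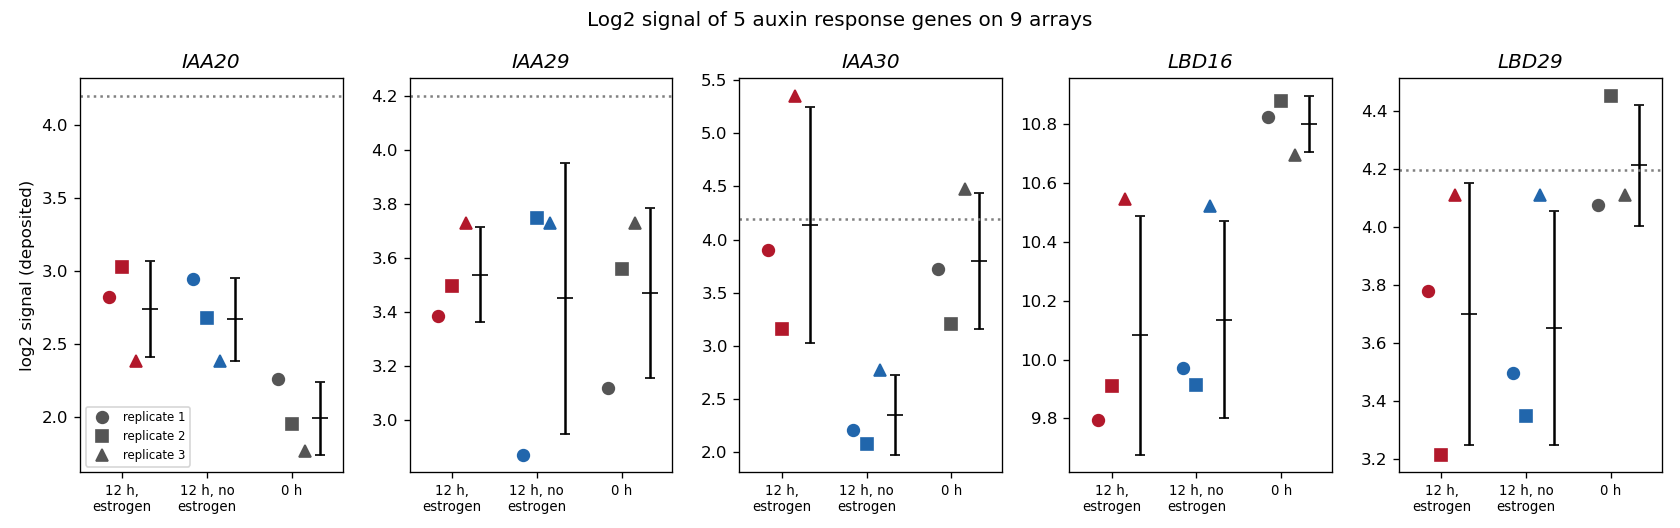
Deposited log2 signal (vertical axes, a separate scale for each gene) of the 5 genes in estrogen-treated cells at 12 h, untreated cells at 12 h and cells at 0 h. Circles, squares and triangles are replicates 1, 2 and 3, black bars the mean ± SD of 3 arrays, and the dotted line the background rows' median of 4.20, which is off the scale for LBD16. The 3 untreated IAA30 arrays (2.07 to 2.78) lie below the 3 estrogen-treated ones (3.16 to 5.35), and LBD16 is highest at 0 h.

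The first comparison set estrogen-treated against untreated cells, both at 12 h, and so addressed induction with culture time held equal. IAA30, the degron-less repressor gene, had the largest difference among the 5 genes, and it was higher with estrogen in 3 of 3 replicate pairs. IAA20, IAA29, LBD16 and LBD29 differed by 0.09 or less in size on the log2 scale. None of the 5 was called higher or lower by limma, a linear model across all probe sets with a call at a Benjamini-Hochberg adjusted p under 0.05. Over all probe sets 0.0392% were called higher and 0% lower, and with the replicate number as a block 0.06% were called and again none of the 5 genes. At an unadjusted p under 0.05, 1 of the 5 genes (IAA30) and 855 of 38310 probe sets passed. The 5 were chosen with earlier results of these data known, so these counts make no fair comparison.

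IAA30 had log2 signals of 3.91, 3.16 and 5.35 in estrogen-treated replicates 1 to 3, against 2.21, 2.07 and 2.78 in untreated replicates 1 to 3 and 3.72, 3.20 and 4.47 at 0 h. Estrogen-treated and untreated arrays did not overlap, which held for 4.28% of probe sets in either direction and for 1 of the 5 genes. The untreated arrays were the lowest of all 9, and estrogen-treated and 0 h arrays overlapped. The group means were 4.14 ± 1.11 with estrogen, 2.35 ± 0.37 without it and 3.80 ± 0.64 at 0 h (SD, n = 3 each). Estrogen-treated minus untreated cells was 1.79 (SE 0.53, 95% interval 0.59 to 2.98), a 3.45-fold difference, with limma adjusted p = 1. Within replicates 1, 2 and 3 it was 1.70, 1.08 and 2.57, and the estrogen-treated array of replicate 3 was the highest of all 9. With the replicate block the SE was 0.26 and the adjusted p 0.232, and over the 17 alternatives run for it the adjusted p ranged from 0.109 to 1, so none gave a call. The difference stayed between 1.18, without estrogen-treated replicate 3, and 2.28, without estrogen-treated replicate 2.

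IAA20, the other degron-less repressor gene, had 2.82, 3.03 and 2.38 with estrogen, against 2.95, 2.67 and 2.38 without it. The groups overlapped, and the last values of both are the repeated one of replicate 3. Its difference of 0.07 (SE 0.23) had a 95% interval of -0.45 to 0.60. IAA29, which in seedlings is raised by shade and warmth, had 3.39, 3.50 and 3.73 with estrogen, against 2.87, 3.75 and 3.73 without it. Its difference was 0.09 (SE 0.27, interval -0.53 to 0.70), with 1 pair higher, 1 lower and 1 equal.

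LBD16 had 9.79, 9.91 and 10.55 with estrogen, against 9.97, 9.91 and 10.52 without it. In both groups replicate 3 was the high array, and the groups overlapped throughout. The difference was -0.05 (SE 0.24, interval -0.60 to 0.50). LBD29 had 3.78, 3.21 and 4.11 with estrogen, against 3.50, 3.35 and 4.11 without it, a difference of 0.05 (SE 0.28, interval -0.58 to 0.68).

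**Figure D2:**
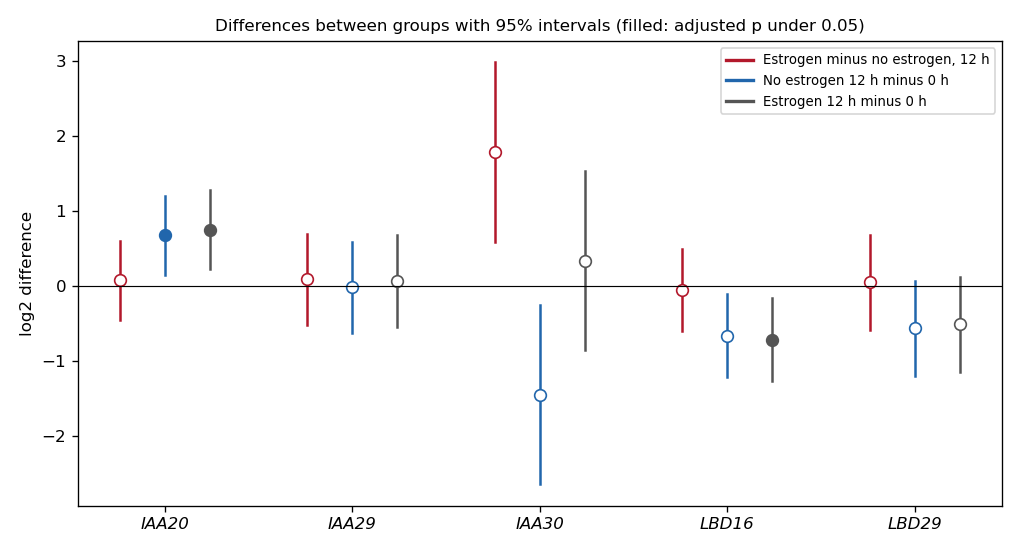
Log2 difference (vertical axis) of the 5 genes in the 3 comparisons, with 95% intervals from limma as vertical lines. Filled points passed an adjusted p of 0.05: IAA20 at 0.68 (without estrogen against 0 h) and 0.75 (with estrogen against 0 h), and LBD16 at -0.72 with estrogen against 0 h. IAA30 has the widest intervals.

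The second comparison set untreated cells at 12 h against the starting cells at 0 h, and so addressed culture time in the absence of induction. IAA20 rose by 0.68 on the log2 scale, at levels below the background rows' median. IAA30 and LBD16 had lower means at 12 h and missed the threshold narrowly, and both were called lower once the replicate number was a block. LBD29 had a lower mean that was not called in either fit, and IAA29 differed by -0.02. The call of 1 of 5 genes as higher and 0 as lower stands against 27.4% of probe sets called higher and 11.9% called lower. With the block 3 of the 5 were called, against 50.1% of probe sets. Groups did not overlap for 3 of the 5 (IAA20, IAA30 and LBD16), against 45.5% of probe sets, so these counts were near what the shares of all probe sets would give for 5 genes. The median difference of the 5 was -0.56, beside 0.12 over all probe sets and -0.0003 over those with 1 gene, the kind the 5 belong to. Over those with 1 gene it became -0.18 after quantile normalization and -0.47 after centring. That shift enters each rescaled difference from 0 h given below for untreated cells. Of 16411 genes with a probe set of their own, 2699 were called higher and 2239 lower.

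IAA20 had 2.95, 2.67 and 2.38 in untreated cells at 12 h, against 2.26, 1.95 and 1.76 at 0 h. The groups did not overlap, and the pair differences of 0.69, 0.72 and 0.62 were alike in size. The means were 2.67 ± 0.28 at 12 h and 1.99 ± 0.25 at 0 h (SD, n = 3 each), and the difference was 0.68 (SE 0.23, 1.60-fold, limma adjusted p = 0.0452). The call rested on the scaling and on single arrays. After quantile normalization the difference was 0.63 (adjusted p = 0.104) and after median centring 0.21 (adjusted p = 0.598). The same scalings lowered the median difference of probe sets with 1 gene to -0.18 and -0.47. With the estrogen-treated arrays out of the fit the adjusted p was 0.0528. Leaving out a single array ended the call for untreated replicates 1 (0.160) and 2 (0.104), for 0 h replicates 2 (0.113) and 3 (0.119), and for estrogen-treated replicate 1 (0.0657). With the replicate block the adjusted p was 0.0048.

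IAA30 had 2.21, 2.07 and 2.78 in untreated cells at 12 h, against 3.72, 3.20 and 4.47 at 0 h. Every array at 12 h lay below every array at 0 h, with pair differences of -1.51, -1.13 and -1.70. The difference was -1.45 (SE 0.53, interval -2.64 to -0.25), with adjusted p = 0.0571 in limma and 0.00443 with the replicate block. It was called in 9 of 17 alternatives, among them quantile normalization (-1.64, adjusted p = 0.0131), centring (-1.91, 0.00674), the fit without the third group (0.0157), the removal of all replicate 3 arrays (-1.32, 0.0192) and the removal of estrogen-treated replicate 2 (0.0331) or 3 (0.0125). Leaving out any 1 untreated or 0 h array gave no call in limma (adjusted p = 0.0510 to 0.166). The fit without estrogen-treated replicate 1 gave none either (0.0759). IAA30 and IAA20, close relatives by sequence, thus had differences of opposite sign over the same 12 h.

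LBD16 had 9.97, 9.91 and 10.52 in untreated cells at 12 h, against 10.82, 10.88 and 10.69 at 0 h. The groups did not overlap, but the pair differences were -0.85, -0.97 and -0.17, so that replicate 3 showed a small part of what the other pairs showed. The difference was -0.66 (SE 0.24, interval -1.21 to -0.11), with adjusted p = 0.0583 in limma and 0.0303 with the replicate block, and it was called in 11 of 18 alternatives. In replicates 1 and 2 alone it was -0.91 (adjusted p = 0.00147), after quantile normalization -0.98 (0.00173) and after centring -1.13 (0.00113). Leaving out estrogen-treated replicate 3 or untreated replicate 3 also gave a call (0.0271 and 0.0246). Leaving out any other single array gave none in limma (adjusted p = 0.0627 to 0.181).

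LBD29, which acts with LBD16 in lateral root initiation, had 3.50, 3.35 and 4.11 in untreated cells at 12 h, against 4.08, 4.45 and 4.11 at 0 h. Replicates 1 and 2 were lower at 12 h (-0.58 and -1.10), and replicate 3 repeated its value. The difference was -0.56 (SE 0.28, interval -1.19 to 0.07) with adjusted p = 0.155 in limma and 0.113 with the replicate block. With replicate 3 left out of every group it was -0.84 (adjusted p = 0.0363), after quantile normalization -0.82 (0.0198), after centring -1.03 (0.00646) and with array weights -0.82 (0.0115), and no other of the 18 alternatives gave a call. IAA29 had 2.87, 3.75 and 3.73 in untreated cells at 12 h, against 3.12, 3.56 and 3.73 at 0 h. Its difference of -0.02 (SE 0.27, interval -0.63 to 0.59) came from 1 pair lower, 1 higher and 1 equal.

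**Figure D3:**
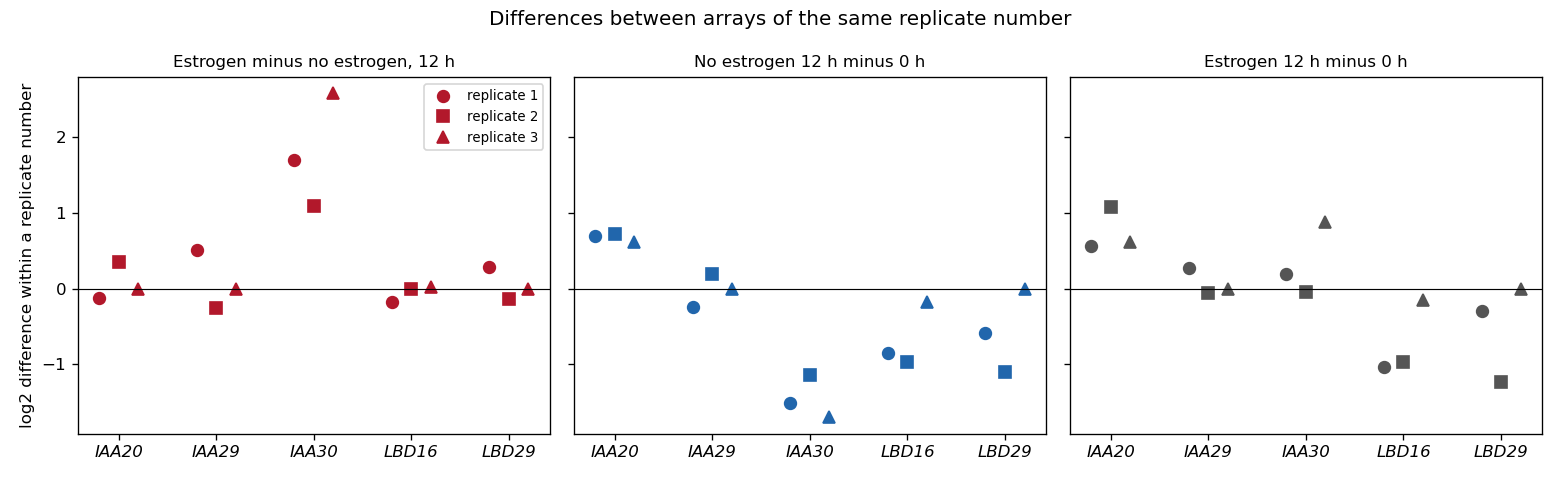
Log2 difference (vertical axis) between arrays of the same replicate number for the 5 genes, 1 panel per comparison. Circles, squares and triangles are replicates 1, 2 and 3. IAA30 is above 0 in all 3 pairs with against without estrogen (1.08 to 2.57) and below 0 in all 3 without estrogen against 0 h (-1.70 to -1.13), and the triangles of IAA29 and LBD29 lie at exactly 0 in each panel.

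The third comparison set estrogen-treated cells at 12 h against the starting cells at 0 h. It joins induction to culture time and shares arrays with both others. IAA20 rose and LBD16 fell. The mean of IAA30 was 0.34 above that at 0 h and was not called, and LBD29 and IAA29 were not called either. Of the 5 genes 1 was called higher and 1 lower, against 28.2% of probe sets higher and 11.7% lower. With the replicate block the same 2 genes were called, against 50.8% of probe sets, and the groups did not overlap for these 2, against 46.2% of probe sets. The median difference of the 5 genes was 0.07, beside 0.12 over all probe sets and -0.004 over those with 1 gene. Over those with 1 gene it became -0.20 after quantile normalization and -0.52 after centring, a shift that enters the rescaled differences below. Of 16411 genes with a probe set of their own, 2723 were called higher and 2238 lower.

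IAA20 had 2.82, 3.03 and 2.38 with estrogen at 12 h, against 2.26, 1.95 and 1.76 at 0 h, with no overlap. The difference was 0.75 (SE 0.23, 1.68-fold, limma adjusted p = 0.0288). It was no longer called after quantile normalization (0.70, adjusted p = 0.0704) or median centring (0.23, 0.553), nor when estrogen-treated replicate 1 (0.0836) or 2 (0.111) or 0 h replicate 2 (0.0793) or 3 (0.0801) was left out. IAA20 thus had its lowest level at 0 h in these deposited values, and the 2 groups at 12 h did not differ beyond their spread.

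LBD16 had 9.79, 9.91 and 10.55 with estrogen at 12 h, against 10.82, 10.88 and 10.69 at 0 h. The estrogen-treated arrays were all lower, replicate 3 by 0.15 and the others by about 1 unit each (-1.03 and -0.97). The means were 10.08 ± 0.41 with estrogen and 10.80 ± 0.10 at 0 h (SD, n = 3 each), a difference of -0.72 (SE 0.24, limma adjusted p = 0.0426). The call was kept with the replicate block (0.0224), in replicates 1 and 2 alone (-1.0, adjusted p = 0.00107), after quantile normalization (-1.04, 0.00122) and after centring (-1.23, 0.000667). With the untreated arrays out of the fit the adjusted p was 0.0502, no longer a call. Leaving out 1 array ended it for estrogen-treated replicates 1 (0.149) and 2 (0.135), for untreated replicates 1 (0.0584) and 2 (0.0532), and for each 0 h array (0.103, 0.116 and 0.0585 for replicates 1 to 3). Cells at 0 h thus had the highest LBD16 level, and the 2 groups at 12 h did not differ beyond their spread.

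IAA30 had 3.91, 3.16 and 5.35 with estrogen at 12 h, against 3.72, 3.20 and 4.47 at 0 h. The groups overlapped almost completely, and replicate 3 was the high array in both. The difference was 0.34 (SE 0.53, interval -0.86 to 1.53, adjusted p = 0.715), and without estrogen-treated replicate 3 it was -0.27. LBD29 had 3.78, 3.21 and 4.11 with estrogen, against 4.08, 4.45 and 4.11 at 0 h, a difference of -0.51 (SE 0.28, adjusted p = 0.195). It was called with replicate 3 left out of every group (-0.77, adjusted p = 0.0481), after quantile normalization (-0.79, 0.0228), after centring (-1.03, 0.00601) and with array weights (-0.84, 0.00939), but in none of the other 14 alternatives. Without estrogen-treated replicate 2 the difference was -0.27 (adjusted p = 0.557). IAA29 had 3.39, 3.50 and 3.73 with estrogen, against 3.12, 3.56 and 3.73 at 0 h, a difference of 0.07 (SE 0.27, interval -0.54 to 0.68).

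**Figure D4:**
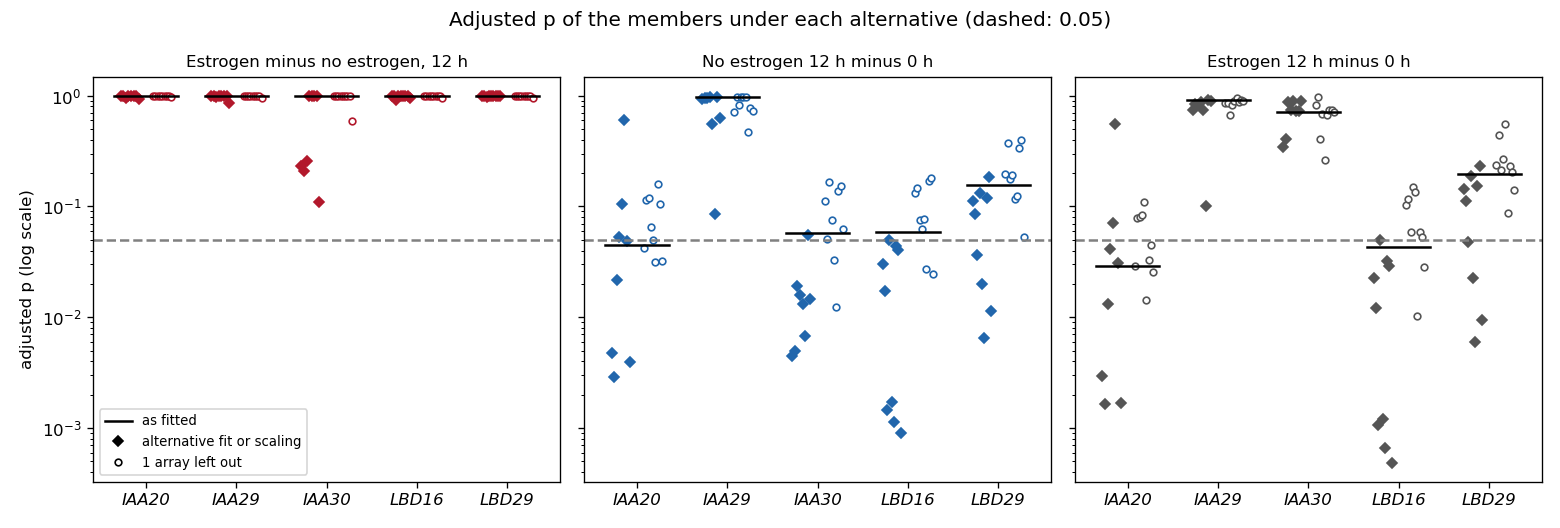
Adjusted p (log scale, vertical axis) of the 5 genes in the 3 comparisons. The black line is limma on the deposited values, diamonds are other fits or scalings, open circles are fits with 1 array left out, and the dashed line is 0.05. With against without estrogen no alternative falls below 0.109, whereas the values for IAA20, IAA30, LBD16 and LBD29 against 0 h lie on both sides of the dashed line in at least 1 panel.

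The 5 genes did not share 1 course over the 9 arrays. LBD16 and LBD29 had their highest group means at 0 h and correlated at r = 0.88 over 9 arrays and 0.85 over the 6 arrays of replicates 1 and 2. IAA20 ran opposite to them (r = -0.89 with LBD16 and -0.85 with LBD29 over 9 arrays). IAA20 lay below the background rows' median on 9 of 9 arrays and LBD29 on 8. LBD29 was not called against 0 h as deposited. IAA30 was lowest without estrogen and correlated weakly with each of the others (r = -0.44 to 0.50). IAA29 had near-equal group means and also correlated weakly with the rest (r = -0.41 to 0.30). These values describe arrays that share groups, scaling and replicate numbers, and they carry no test.

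The genes whose log2 signals ran most like each member were taken as the 3 highest Pearson correlations over the 9 arrays among probe sets with 1 gene. For IAA30 these were AT5G02230 (r = 0.947), AT5G67340 (r = 0.946) and AT5G11970 (r = 0.930). AT5G02230 averaged 7.39 with estrogen, 5.73 without it and 6.92 at 0 h, and it was not called in any comparison. All like genes, here and below, were chosen for likeness on these same arrays, so none gives separate support to a member's course. AT5G67340 was called lower in untreated cells at 12 h against 0 h (-0.66, adjusted p = 0.0401), and none of the 3 was called with against without estrogen. For LBD16 they were AT3G57810 (r = 0.996), AT2G25950 (r = 0.991) and AT4G38020 (r = 0.987). AT3G57810 differed by -0.84 with estrogen at 12 h against 0 h (adjusted p = 0.0231) and by -0.79 without estrogen against 0 h (adjusted p = 0.0296).

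For IAA20 the 3 were AT3G58590 (r = 0.988), AT4G17360 (r = 0.983) and AT2G33260 (r = 0.970), all 3 called higher in both comparisons with 0 h. AT4G17360 lay well above the background rows' median, at 7.93 with estrogen, 7.87 without it and 7.32 at 0 h. It too was chosen for likeness, so its level and calls lend no support to the course of IAA20. For LBD29 they were AT5G39460 (r = 0.971), AT3G61840 (r = 0.965) and AT5G09490 (r = 0.960), and for IAA29 AT5G42223 (r = 0.971), AT5G17980 (r = 0.962) and AT1G50220 (r = 0.955). None of these 6 was called in any comparison. The repeated replicate 3 values of such dim probe sets enter the correlations.

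The wider auxin pathway was covered in part. Of 113 listed genes for Aux/IAA repressors, receptors and co-repressors, ARFs, LBD factors, GH3 enzymes, transport and biosynthesis, 20 had a probe set of their own, and these 20 include the 5 described above. They were 8 of 29 Aux/IAA genes, 2 of 20 LBD genes, 6 of 9 GH3 genes and 4 of 14 biosynthesis genes. The receptors, co-repressors, ARFs and transporters were not analysed here. With against without estrogen, 0 of the 20 were called, beside 4 of 16411 genes called higher and 0 lower, and their median difference was 0.03, beside 0.01 over all genes.

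YUC4, a flavin monooxygenase of auxin biosynthesis, had the smallest p of its list in that comparison. It had 7.69, 8.02 and 7.13 with estrogen, against 6.75, 6.80 and 6.47 without it, and 7.39, 7.44 and 7.14 at 0 h. Like IAA30 it was lowest without estrogen, with no overlap between the 2 groups at 12 h, and it lay above the background rows' median on every array. The difference was 0.94 (SE 0.24, limma adjusted p = 1, 0.192 with the replicate block), and over 18 alternatives the adjusted p ranged from 0.0128, with array weights and the 1 call among them, to 1. Without estrogen at 12 h against 0 h YUC4 differed by -0.66 (SE 0.24, adjusted p = 0.0544, and 0.0068 with the replicate block), and it was called in 10 of 18 alternatives.

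Of the GH3 genes, GH3.17 had the smallest p with against without estrogen, at 0.12 (SE 0.16, adjusted p = 1), and with estrogen at 12 h against 0 h YUC4 differed by 0.29 (adjusted p = 0.419). Over the alternatives that difference ranged from -0.23, after centring, to 0.53, and it was also below 0 after quantile normalization (-0.082). It was called in 1 of 18, with array weights (adjusted p = 0.0415).

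In untreated cells at 12 h against 0 h, 2 of the 20 auxin genes were called higher and 0 lower, beside 2699 higher and 2239 lower of 16411 genes. The median of the 20 was -0.09, beside 0.0005 over all genes. Besides IAA20 the call was GH3.1, of the family that conjugates auxin to amino acids, which rose by 2.73 (SE 0.36, adjusted p = 0.000324). With the replicate block 8 of the 20 were called, with IAA20 and GH3.1 higher and IAA18, IAA30, LBD16, GH3.3, GH3.5 and YUC4 lower, beside 50.1% of all probe sets called in that fit. In estrogen-treated cells at 12 h against 0 h 2 were called higher (IAA20 and GH3.1) and 2 lower (LBD16 and GH3.3), beside 2723 higher and 2238 lower of 16411 genes. With the replicate block 6 of the 20 were called, with IAA18 and GH3.5 added as lower, beside 50.8% of all probe sets called in that fit. GH3.3, whose enzyme inactivates auxin in the same way, fell by 2.02 (SE 0.70, adjusted p = 0.0458). That call ended in 7 of 18 alternatives, all of which left out 1 array (replicate 1 or 2 of either 12 h group, or any 0 h array), with adjusted p up to 0.152.

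Among the Aux/IAA genes other than the 3 described, IAA18, a canonical repressor, averaged 7.87 ± 0.16 with estrogen, 7.85 ± 0.06 without it and 8.19 ± 0.16 at 0 h (SD, n = 3 each). Its differences from 0 h were -0.31 with estrogen (adjusted p = 0.161, 0.0335 with the replicate block) and -0.34 without it (0.129 and 0.0247). IAA15, IAA31, IAA33 and IAA34 averaged between 2.63 and 3.72, below the background rows' median, and none was called in the 3 comparisons. Of the 6 LBD and YUC genes, LBD16 and YUC4 alone lay above that median on all arrays.

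**Figure D5:**
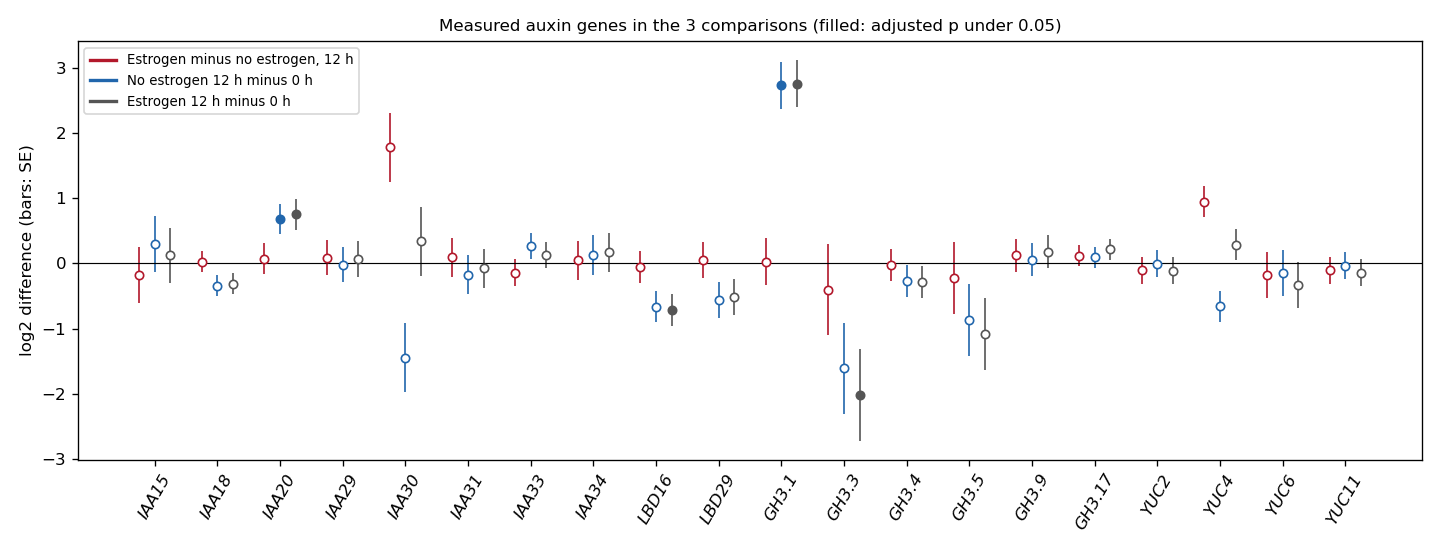
Log2 difference ± SE (vertical axis) of the 20 measured auxin genes in the 3 comparisons, with filled points for an adjusted p under 0.05. IAA30 and YUC4 have the highest values with against without estrogen (1.79 and 0.94, neither called), and GH3.1 rises most against 0 h.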

How the data were processed

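The authors deposited log2 signals per probe set. The submitters' processing notes name Affymetrix Expression Console 1.3, and how signals were summarised and normalized is not given in the sources used here. Sense-strand DNA was made from total RNA and hybridised to 1 array per sample, per the labels' protocols. Groups and replicate numbers came from the titles. Nothing says that replicates were separate cultures, so the spread behind each p-value is that between these samples and may be technical.

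Of 38506 rows, 38310 were probe sets filled on each of the 9 arrays, tested as deposited. The other 196 were control rows, 98 filled only on replicates 1 and 2 and 98 only on replicate 3. Arrays give no read depth, so their number limits the precision. The platform annotation named 1 gene for 16722 probe sets, of which 16574 were found in a RefSeq gene table (TAIR10.1), used for names. For list genes the probe set with the highest mean stood for a gene.

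Group means were estimated over the 9 arrays by limma 3.58.1 (functions lmFit and eBayes, R 4.3.3), with 3 two-sided pairwise contrasts and Benjamini-Hochberg adjustment over 38310 probe sets. The script was tested on simulated data with independent noise, no replicate effect and no repeated values. That run checks the code and not how the tests behave on these arrays. Figures used Python 3.11.15 and matplotlib 3.10.9. Members and lists were chosen with earlier results of these data known. Named besides the members were LHW, per list up to 4 called genes or otherwise the 1 with the smallest p in a comparison, and 3 like genes per member. Added to that rule after their values were seen were IAA18, GH3.5 and the dim Aux/IAA genes.

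Replicate numbers recur in each group. After subtraction of group means, arrays of the same number correlated at r = 0.173 to 0.383 between replicates 1 or 2. For replicate 3 the range was 0.445 to 0.616. Those arrays also share other control rows and repeated values, so this range cannot tell whether the numbers pair the arrays. The tests reported first have no block. For the members and the auxin genes, calls or values with the block are given where a call changes. Unlike-numbered arrays of replicates 1 and 2 also correlated (0.156 to 0.277), and unlike pairs with replicate 3 gave -0.462 to -0.249. The ranges of like and unlike numbers overlap for replicates 1 and 2, so there too the correlations cannot tell whether the numbers pair the arrays. Alternatives were the replicate block, replicate 3 against the others as a block, replicates 1 and 2 only, the 2 groups compared alone, quantile normalization, median centring, a filter that drops the dimmest 25%, eBayes with a trend in intensity and robust prior, array weights and the omission of each array.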

Additional observations from a re-analysis of the deposited data

How the results depend on the processing

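With against without estrogen, 0 of the 5 genes were called in any alternative, while the probe sets called numbered 15 as deposited, 23 with the replicate block, 40 with replicate 3 as a block, 69 in replicates 1 and 2, 608 with array weights and 11 to 95 with 1 array left out. Of the auxin genes 1 was called with array weights and 0 with 1 array left out. In untreated cells against 0 h, 1 of the 5 was called as deposited, 3 with either block, after quantile normalization or after centring, 4 in replicates 1 and 2 or with array weights, 2 in the fit of the 2 groups alone or with an intensity trend, and 0 to 3 with 1 array left out. The auxin genes called there were 2 as deposited, 8 with either block, in replicates 1 and 2 or after quantile normalization, 11 after centring, 9 with array weights, 4 in the 2 groups alone, 3 with the dimmest left out or with an intensity trend, and 1 to 6 with 1 array left out, among 12714 to 15732 probe sets. Counts of all probe sets called moved too, with 15063 as deposited, 19186 with the replicate block, 17150 after quantile normalization, 20618 after centring and 20082 with array weights. In estrogen-treated cells against 0 h, 2 of the 5 were called as deposited, 1 in the 2 groups alone, 1 of the 2 still measured without the dimmest probe sets, and 0 to 2 with 1 array left out. The auxin genes called there were 4 as deposited, 6 with either block or after quantile normalization and 7 in replicates 1 and 2. They were 8 after centring or with array weights and 1 to 5 with 1 array left out, among 12958 to 16076 probe sets. Probe sets called there numbered 15279 as deposited, 19445 with the replicate block and 17543 after quantile normalization. They numbered 19234 in replicates 1 and 2, 22072 after centring and 20241 with array weights.

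The split of calls depended on scaling. Of probe sets called without estrogen against 0 h, 69.7% were higher in the deposited scale, 52.3% with quantile normalization and 38.7% with centring, and with estrogen against 0 h 70.6%, 52.0% and 36.5%. The median difference of all probe sets without estrogen against 0 h was 0.12, -0.07 and -0.35 in that order. Over probe sets with 1 gene, the kind the members belong to, it was lower, at -0.0003, -0.18 and -0.47. The next values are relative to the median of all probe sets. IAA20 differed by 0.56, 0.69 and 0.56, IAA30 by -1.57, -1.58 and -1.57 and LBD16 by -0.78, -0.91 and -0.78.

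Signs that turned were all of differences not called. With against without estrogen, LBD29 was at -0.0028 after centring and -0.021 with array weights. With 1 array left out, that comparison ranged from -0.069 to 0.26 for IAA20, -0.20 to 0.24 for IAA29, -0.28 to 0.14 for LBD16 and -0.15 to 0.29 for LBD29. With estrogen against 0 h, IAA29 was at -0.11 after quantile normalization and -0.45 after centring (-0.11 to 0.20 with 1 array left out), and IAA30 was at -0.18 after centring (-0.27 to 0.83). Without estrogen against 0 h, IAA29 ranged from -0.19 to 0.27 with 1 array left out. The causes were not tested. IAA20, IAA29 and IAA30 were removed with the dimmest 25% and have no value there. Apart from IAA30 and LBD16 without estrogen against 0 h, the replicate block changed no call of the 5 genes.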

Other observations

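GH3.3 and GH3.5, which encode auxin-conjugating enzymes, had lower values at 12 h in every replicate pair, and like LBD16 less so in replicate 3. GH3.3 had log2 signals of 9.11, 8.95 and 11.19 with estrogen, 9.52, 9.41 and 11.53 without it, and 11.48, 11.49 and 12.33 at 0 h (replicates 1 to 3). GH3.5 had 9.82, 9.71 and 11.31 with estrogen, 9.97, 9.95 and 11.59 without it, and 11.14, 11.03 and 11.94 at 0 h. In limma without the block, GH3.5 was not called with estrogen against 0 h (adjusted p = 0.159) or without it (0.273). GH3.3 was not called without estrogen against 0 h in that fit (adjusted p = 0.104). For both genes replicate 3 was the high array in every group and lay closest to its 0 h partner. GH3.1 went the other way, with 10.71, 10.61 and 11.69 with estrogen, 10.65, 10.62 and 11.68 without it, and 8.23, 8.04 and 8.48 at 0 h.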
